A study of Rattus norvegicus with 9 samples.

Results

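The miR-10 family comprises miR-10a and miR-10b, which are encoded inside Hox gene clusters. Its mature products were taken from the deposited small RNA table of rat cornea by name. All 4 names sought were present among the 765 mature miRNAs listed, namely rno-miR-10a-5p, rno-miR-10a-3p, rno-miR-10b-5p and rno-miR-10b-3p, where rno stands for rat and is left out from here on. The values came from 9 libraries of cornea from Wistar rats labelled 6 weeks old, with 3 allografts, 3 isografts and 3 normal corneas. An isograft joins genetically matched donor and host and an allograft joins unmatched ones, but the labels state neither the donor strain nor the host strain, and all groups carry the same strain label. Time after surgery, graft condition and any treatment were not stated, and no allele or agent was named for any group. Each library carries its group name and the number 12, 34 or 56 from its title, whose meaning the labels do not explain. Nothing is stated on how many animals gave each library. The p-values therefore rest on the spread between these samples alone, and that spread may be technical.

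A mature miRNA is a short RNA that guides silencing proteins to messenger RNAs, mainly by pairing through its seed, bases 2 to 8 from the 5′ end. One arm of the hairpin precursor is usually kept and the other discarded. In vertebrate embryos miR-10 is expressed along the trunk in domains like those of the neighbouring Hox genes, and several Hox messenger RNAs are known targets. The corneal stroma and the corneal endothelium derive largely from cranial neural crest, which in its most anterior part does not express Hox genes, and blood vessels are normally absent from the central cornea. In zebrafish miR-10 promotes vessel growth, in human endothelial cells miR-10a restrains inflammatory signalling, and in mice miR-10a is expressed in regulatory T cells.

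The sequences show how alike the family members are and why their reads can be confused. All 4 matched an entry in RefSeq (build GRCr8). The mature products are given 5′ to 3′ with bases 2 to 8 in capitals.
miR-10a-5p: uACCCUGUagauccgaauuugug
miR-10b-5p: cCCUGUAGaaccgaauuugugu
miR-10a-3p: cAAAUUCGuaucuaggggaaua
miR-10b-3p: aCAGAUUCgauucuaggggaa
In RefSeq miR-10a-5p lies at chr10:81779730-81779752 and miR-10b-5p at chr3:80035886-80035907, both on the plus strand. By gene order in the same build, the miR-10a gene sits between Hoxb5 and Hoxb4 and the miR-10b gene within the annotated span of Hoxd4.

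The annotated miR-10b-5p begins 2 bases later than miR-10a-5p when both are laid on the same frame. The hairpins show this, with the mature arms in capitals.
miR-10a hairpin: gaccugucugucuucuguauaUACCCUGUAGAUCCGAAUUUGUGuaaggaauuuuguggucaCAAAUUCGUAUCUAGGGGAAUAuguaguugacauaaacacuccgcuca
miR-10b hairpin: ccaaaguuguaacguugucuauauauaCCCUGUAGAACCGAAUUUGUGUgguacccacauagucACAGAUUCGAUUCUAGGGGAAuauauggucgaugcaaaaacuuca
Over the 23 bases of miR-10a-5p the miR-10b hairpin differed at 1 position, U12A, counted from the 5′ end of miR-10a-5p. In that frame the miR-10b stretch carries the same seed as miR-10a-5p, in capitals here.
miR-10b in the miR-10a frame: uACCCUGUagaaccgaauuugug
As annotated, neither 5p arm shared its bases 2 to 8 with any other of the 724 mature entries in the table. The deposited table gives a single value per miRNA and not where its reads began, so the 5′ ends in these corneas were not analysed here. With 1 base between them, the split of reads between miR-10a-5p and miR-10b-5p depends on the matching rule, which is not given in the sources used here. The 3p arms differed at 3 of 22 aligned positions.

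Depth was alike across libraries, with between 11001459 and 12153889 reads in the total to which each library's RPM values (reads scaled to a common total) refer. Listed miRNAs took 26.4% to 46.3% of that total in allografts, 36.8% to 54.5% in isografts and 46.6% to 65.6% in normal corneas. A count of 3 reads, about the one-sided 95% limit that an absence of reads allows, corresponded to 0.247 to 0.273 RPM. Intervals and limits on reads cover counting error only. The tissue label was checked on 8 miRNAs of corneal epithelium, all of which were present in every group and summed to 37254 to 90969 RPM in allografts, 159213 to 193990 RPM in isografts and 271148 to 420587 RPM in normal corneas. Counting noise alone did not account for the spread between libraries of 1 group (70.5 to 810 for chi-square over its degrees of freedom), and each was counted as a sample. A miRNA was tested if it reached 5 RPM in at least 3 libraries, which 281 did.

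Both 5p arms were abundant enough to test and neither depended on the grafts for that, since miR-10a-5p and miR-10b-5p were above 5 RPM in every normal cornea. miR-10a-5p was at 168, 106 and 164 RPM in allografts 12, 34 and 56. Isografts 12, 34 and 56 had 188, 268 and 132.6 RPM, against 11.1, 9.18 and 17.5 RPM in normal corneas 12, 34 and 56. The lowest graft library was 6.04 times the highest normal one. miR-10b-5p was at 1634, 1043 and 1271 RPM in the allografts. Isografts had 1647, 2255 and 1707 RPM, against 284, 112 and 121 RPM in normal corneas. Its graft libraries also lay wholly above its normal libraries, the lowest of them 3.67 times the highest normal value, which was that of normal 12.

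**Figure D1:**
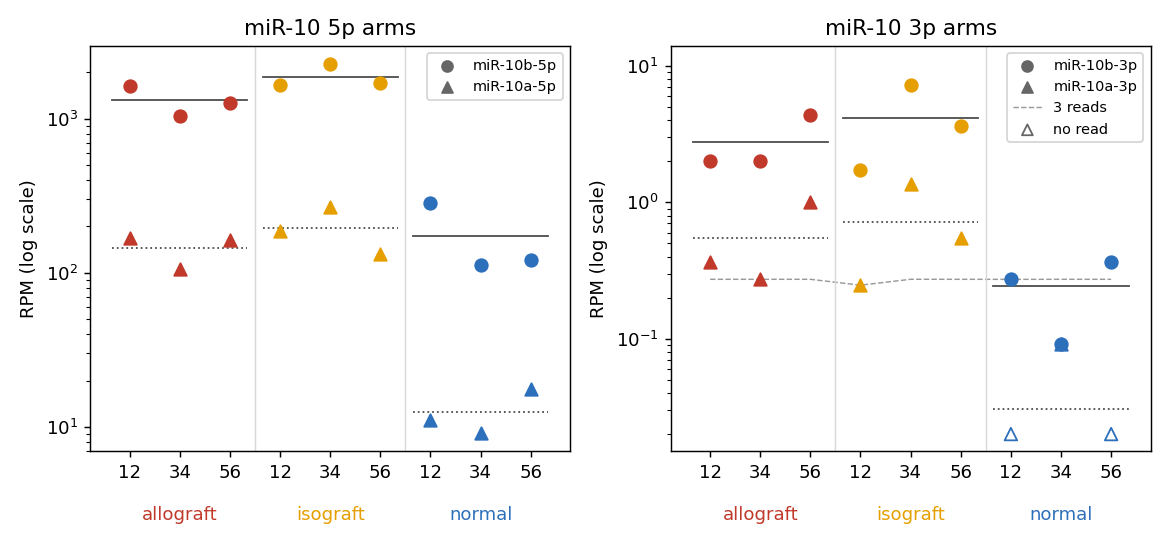
RPM on a log scale for the miR-10 5p arms (left) and 3p arms (right) in each allograft, isograft and normal library. Circles are miR-10b, triangles miR-10a, open triangles libraries with no read, solid and dotted lines the group means of miR-10b and miR-10a, and the dashed line 3 reads. All 6 graft libraries lie above all 3 normal libraries for both 5p arms, for example at 1043 RPM or more for miR-10b-5p against 284 RPM or less.

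The comparison of allografts with normal corneas addresses what differs after grafting between unmatched donor and host. miR-10a-5p averaged 146 ± 34.7 RPM in allografts and 12.6 ± 4.38 RPM in normal corneas (SD, n = 3 each), a log2 fold change of 3.45 on the log2(RPM + 1) scale (SE 0.40, limma adjusted p = 2.77e-08). That is 10.9-fold with a 95% interval of 6.21 to 19.2. miR-10b-5p averaged 1316 ± 298 RPM in allografts and 172 ± 96.6 RPM in normal corneas (SD, n = 3 each), a log2 fold change of 3.04 (SE 0.37, limma adjusted p = 8.76e-08), or 8.20-fold with an interval of 4.82 to 13.9. Both tested members thus rose, where 23.1% of the 281 tested miRNAs rose and 29.9% had allograft values wholly above the normal ones. By size of rise miR-10a-5p stood 15th and miR-10b-5p 20th of the 281.

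The comparison of isografts with normal corneas addresses what differs after grafting when donor and host match. miR-10a-5p averaged 196.1 ± 68.0 RPM in isografts and miR-10b-5p 1869 ± 335 RPM (SD, n = 3), against the normal means given above. The fold over normal was 14.4 for miR-10a-5p (95% interval 8.18 to 25.3) and 11.7 for miR-10b-5p (6.89 to 20.0), both with a limma adjusted p = 3.74e-08. In the fit over all 9 libraries these ranked 1 and 2 among the 281 miRNAs by size of rise, and also by p. Ranks were not taken in other settings. With a library left out, the log2 fold change ran from 3.31 to 3.98 for miR-10b-5p and from 3.09 to 3.84 for miR-143-5p. Of all tested miRNAs 16.7% rose in this comparison and 22.4% had isograft values wholly above the normal ones. Both comparisons use the same 3 normal libraries. Without normal 12, the highest normal library for miR-10b-5p, its log2 fold change was 3.46 in allografts and 3.98 in isografts. In bulk tissue, more cells of a type and more of the RNA per cell cannot be told apart.

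Between the grafts no difference was detected for either 5p arm. Allografts and isografts overlapped in both. The log2 fold change of allografts over isografts was -0.40 for miR-10a-5p (SE 0.40, 95% interval -1.21 to 0.42, limma adjusted p = 0.447) and -0.52 for miR-10b-5p (SE 0.37, -1.28 to 0.25, adjusted p = 0.296). On the fold scale the intervals ran from 0.432 to 1.34 for miR-10a-5p and from 0.411 to 1.19 for miR-10b-5p, so a fall to a level of 0.432 or 0.411 of isografts lies within them. In this comparison 34.5% of the tested miRNAs changed, 13.5% higher and 21.0% lower. With libraries scaled to their listed miRNAs alone, the values were 0.0135 for miR-10a-5p and -0.10 for miR-10b-5p.

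**Figure D2:**
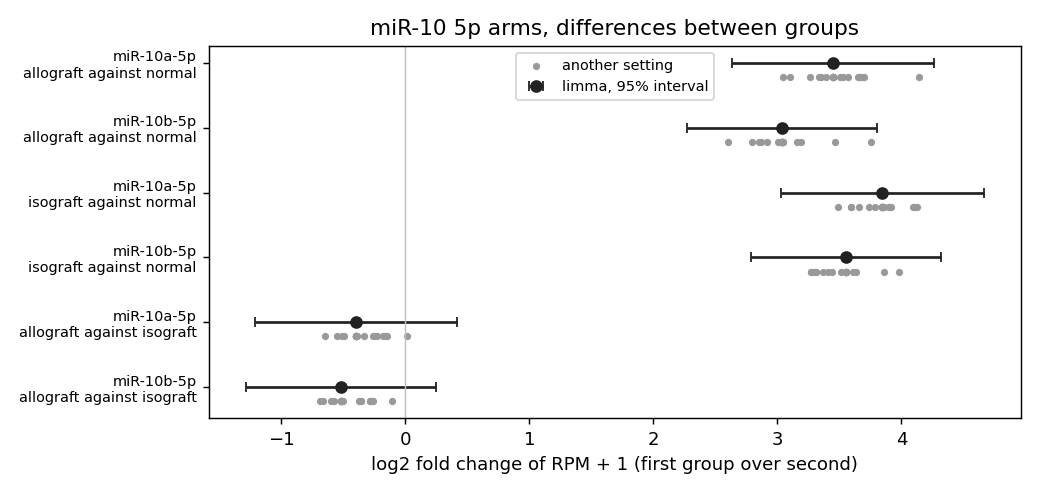
Log2 fold change of RPM + 1 for both miR-10 5p arms in 3 comparisons, the first named group over the second. Black points with bars are the limma estimates with 95% intervals and grey points below them the same value under other settings. The 4 values against normal corneas lie between 3.04 and 3.85, and the intervals between allografts and isografts include 0.

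As a share of the reads of all listed miRNAs, which leaves out the unlisted reads in the RPM total, miR-10b-5p took 0.275% to 0.481% in allografts, 0.350% to 0.447% in isografts and 0.0171% to 0.0609% in normal corneas. In order of abundance among the 765, miR-10b-5p stood between 27 and 48 in allografts, between 31 and 38 in isografts and between 68 and 99 in normal corneas. miR-10a-5p stood between 85 and 98 in allografts, between 68 and 106 in isografts and at 179 or further down the order in normal corneas. In normal cornea the 5p arms were therefore measured well above 0.

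miR-10b-5p exceeded miR-10a-5p in every library. Mature miRNAs are read whole, so these RPM values need no correction for length. miR-10a-5p made up 9.30%, 9.22% and 11.4% of the reads of both 5p arms in allografts 12, 34 and 56. It made up 10.2%, 10.6% and 7.21% in the isografts and 3.76%, 7.55% and 12.7% in the normal corneas. The normal libraries spanned the graft values on both sides, with normal 12 lowest (95% exact binomial interval 3.13 to 4.47) and normal 56 highest (11.0 to 14.4). The log2 ratio of miR-10a-5p to miR-10b-5p, with 1 RPM added to each, was -3.17 ± 0.19 in allografts, -3.29 ± 0.34 in isografts and -3.59 ± 0.93 in normal corneas (SD, n = 3 each). No difference was detected over the groups (exact permutation test of the sum of squares between groups, p = 0.779, where the smallest p possible is 0.00357). The values are for the reads as the authors divided them between the near-identical arms.

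Within groups the 5p arms did not always deviate the same way. In allografts both were lowest in allograft 34 and highest in allograft 12. In isografts both were highest in isograft 34 and lowest in different libraries, isograft 56 for miR-10a-5p and isograft 12 for miR-10b-5p. In normal corneas miR-10b-5p was highest in normal 12, by 0.85 on the log2 scale over its group mean, while miR-10a-5p was highest in normal 56, by 0.49. The spread within groups on the log2 scale was 0.444 for miR-10a-5p and 0.487 for miR-10b-5p, near the median of 0.447 over the tested miRNAs.

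**Figure D3:**
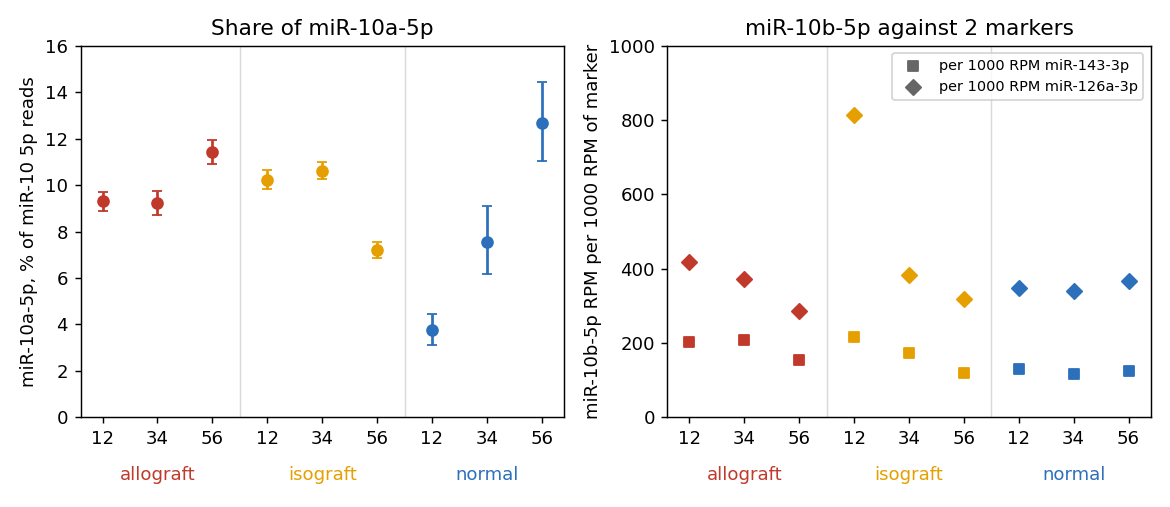
Left, miR-10a-5p as a percentage of the reads of both 5p arms per library, with 95% exact binomial intervals. Right, miR-10b-5p in RPM per 1000 RPM of miR-143-3p (squares) or miR-126a-3p (diamonds). The normal libraries run from 3.76% to 12.7% on the left, around all the grafts, and isograft 12 stands alone on the right at 813 per 1000 RPM of miR-126a-3p.

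The 3p arms, the strands usually discarded, were rare. miR-10b-3p had 22, 22 and 48 reads in allografts, 21, 79 and 40 in isografts and 3, 1 and 4 in normal corneas. Its graft counts all lay above its normal counts. Of the 606 miRNAs with a read in any library, 24.3% had allograft values and 17.3% isograft values wholly above the normal ones. For miR-10a-3p, whose graft counts also lay above its normal counts, there were 4, 3 and 11 reads in allografts, 3, 15 and 6 in isografts and 0, 1 and 0 in normal corneas. Of these arms miR-10b-3p reached 5 RPM in a single library, isograft 34 at 7.18 RPM, and miR-10a-3p in none, so neither was tested under the filter. Pooled over libraries miR-10b-3p was 11.5-fold higher per read sequenced in allografts than in normal corneas (95% counting interval 5.60 to 27.4) and 16.9-fold higher in isografts (8.35 to 40.0). For miR-10a-3p the ratios rest on 1 normal read, at 18.0 for allografts (2.84 to 750.3) and 23.2 for isografts (3.78 to 954).

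Without the filter, a setting on the recovered reads added after the data were seen, edgeR gave miR-10b-3p an adjusted p = 1.36e-06 in allografts and 2.3e-07 in isografts against normal corneas. For miR-10a-3p edgeR gave an adjusted p = 0.00374 in allografts and 0.00294 in isografts. Of 606 miRNAs tested that way, edgeR called 21.9% higher in allografts and 13.7% higher in isografts. limma without the filter gave miR-10a-3p an adjusted p = 0.0512 in allografts and 0.039 in isografts, and miR-10b-3p 0.00495 in allografts and 0.00214 in isografts, with 17.2% of 606 called higher in allografts and 9.41% in isografts. As a share of both arms of its hairpin, miR-10b-3p took 0.218% ± 0.112 in allografts, 0.212% ± 0.106 in isografts and 0.159% ± 0.122 in normal corneas (SD, n = 3 each; exact permutation test, two-sided p = 0.746). The same share for miR-10a-3p was 0.360% ± 0.214 in allografts, 0.349% ± 0.195 in isografts and 0.327% ± 0.566 in normal corneas, where it rests on a single read (exact permutation test over the groups, p = 1).

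Markers of other cells moved beside the family. Against normal corneas 23.1% of all tested miRNAs rose in allografts and 16.7% in isografts. Of 7 miRNAs of stroma and smooth muscle 5 rose in allografts and 6 in isografts. Their median log2 fold changes were 1.83 in allografts and 2.90 in isografts, against -0.14 in allografts and 0.05 in isografts over all tested miRNAs. Their summed level was 10320 to 20261 RPM in allografts, 15393 to 33810 RPM in isografts and 8084 to 9941 RPM in normal corneas. Both arms of miR-126a, made in vascular endothelium, rose in both grafts, with sums of 2955 to 4874 RPM in allografts, 2095 to 6150 RPM in isografts and 346 to 857 RPM in normal corneas. All 5 leukocyte miRNAs rose in both grafts, with sums of 2293 to 3997 RPM in allografts, 156 to 327 RPM in isografts and 46.0 to 56.7 RPM in normal corneas. Of these, miR-142-3p and miR-142-5p were below 5 RPM in every normal cornea. They could be tested only because they were high in grafts, so the filter favoured their rise. The other leukocyte miRNAs were above 5 RPM in every normal cornea. The stromal miR-143-5p was above 5 RPM in normal 12 alone among the normal corneas, so it also needed grafts to pass. Of the 8 epithelial miRNAs 7 fell in allografts and 4 in isografts, where 24.2% of the tested miRNAs fell in allografts and 4.63% in isografts. Of 3 red cell miRNAs 2 were tested and 1 fell in each graft. Their sums were 19.2, 1067 and 17.5 RPM in allografts 12, 34 and 56, 181, 13.6 and 28.0 RPM in the isografts and 313, 82.3 and 343 RPM in the normal corneas, so that allograft 34 lay above every normal library and the other allografts below. Of 6 muscle miRNAs 3 were tested, of which 3 fell in allografts and 2 in isografts, with sums of 38.9 to 53.0 RPM in allografts, 60.2 to 126.2 RPM in isografts and 243 to 323 RPM in normal corneas. No miRNA of these lists was at 0 in every library. The part of these cells in the miR-10 result was not tested.

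Between allografts and isografts the marker lists differed in their medians. All 5 leukocyte miRNAs were higher in allografts, where 13.5% of all tested miRNAs were higher. Their median log2 fold change was 3.78, while the miR-10 5p arms stood at -0.40 and -0.52. The miR-126a arms stood at -0.13 (miR-126a-3p, SE 0.41, limma adjusted p = 0.834) and 0.36 (miR-126a-5p, SE 0.51, adjusted p = 0.605). The sign of miR-126a-3p turned without isograft 34 (0.15), isograft 56 (0.0818) or allograft 34 (0.0575), and under other scalings. That of miR-126a-5p turned without isograft 12 (-0.32) or allograft 56 (-0.0986). Of the 7 stromal and smooth muscle miRNAs 2 fell, where 21.0% of all tested miRNAs fell, with a median of -0.92 against -0.29 over all tested miRNAs. They were miR-145-5p at -1.35 (SE 0.41, adjusted p = 0.0121) and miR-199a-3p at -0.94 (SE 0.37, adjusted p = 0.0496). The call of miR-145-5p was lost without allograft 34 (adjusted p = 0.094), without isograft 34 (adjusted p = 0.0589) and with scaling to listed miRNAs, and that of miR-199a-3p in 13 of 24 other settings (limma adjusted p up to 0.249).

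The level of miR-10b-5p was also set against miR-143-3p, made in fibroblasts and smooth muscle, and against miR-126a-3p. Per 1000 RPM of miR-143-3p there were 203.1, 207 and 153 RPM of miR-10b-5p in allografts, 217, 172 and 119 in isografts and 130, 118 and 124 in normal corneas. Isograft 56 lay within the normal range and the other grafts above it. Per 1000 RPM of miR-126a-3p the values were 418, 372 and 287 in allografts, 813, 384 and 318 in isografts and 349, 339 and 366 in normal corneas. Here grafts lay on both sides of the normal values, and isograft 12, in which the miR-126a sum was 2095 RPM against 6150 and 5684 RPM in the other isografts, stood apart. Normal 12, high for miR-10b-5p, was also the highest normal library for miR-143-3p, at 2182 RPM against 956 and 974 RPM, and for miR-126a-3p, at 812 RPM against 332 and 331 RPM. Set against 1000 RPM of miR-145-5p, there were 4458 to 7583 RPM of miR-10b-5p in allografts and 2914 to 4800 in isografts. Normal corneas had 2516 to 3000, so isograft 56 again lay within the normal range and the other grafts above it. For the mesenchymal markers miR-214-3p and miR-199a-5p the grafts stood higher. Per 1000 RPM of miR-214-3p there were 9164 to 17760 RPM of miR-10b-5p in allografts, 6694 to 15480 in isografts and 2938 to 6581 in normal corneas, so that every graft lay above every normal library, isograft 56 barely above normal 12. Per 1000 RPM of miR-199a-5p there were 504 to 1132 RPM in allografts, 426 to 1041 in isografts and 81.4 to 197 in normal corneas, again without overlap between grafts and normal corneas. How far miR-10b-5p exceeded a stromal marker thus differed with the marker. These ratios were chosen after the values were seen and were not tested.

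The stromal marker miR-214-3p, made in mesenchymal cells, had smaller fold changes than the miR-10 5p arms. It was at 92.0, 64.1 and 139 RPM in allografts, 106, 242 and 255 RPM in isografts and 43.1, 38.2 and 39.8 RPM in normal corneas. Its log2 fold change over normal was 1.19 in allografts (SE 0.41, limma adjusted p = 0.0172) and 2.19 in isografts (SE 0.41, adjusted p = 0.000104). The allograft call was lost without allograft 56 (0.91, adjusted p = 0.0755), without normal 34 (adjusted p = 0.0571), without normal 56 (adjusted p = 0.0662) and with scaling without miR-184. The miR-10 5p arms stood at 3.04 to 3.85 in the same comparisons. The rest of the stromal and smooth muscle list ranged widely. In isografts miR-143-5p stood at 3.40, miR-145-5p at 3.18, miR-143-3p at 3.15, miR-145-3p at 2.90, miR-199a-5p at 1.165 and miR-199a-3p at 0.74. In allografts the values were, in the same order, 2.79, 1.83, 2.46, 1.98, 0.26 and -0.195. The differences between these changes were not tested.

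**Figure D4:**
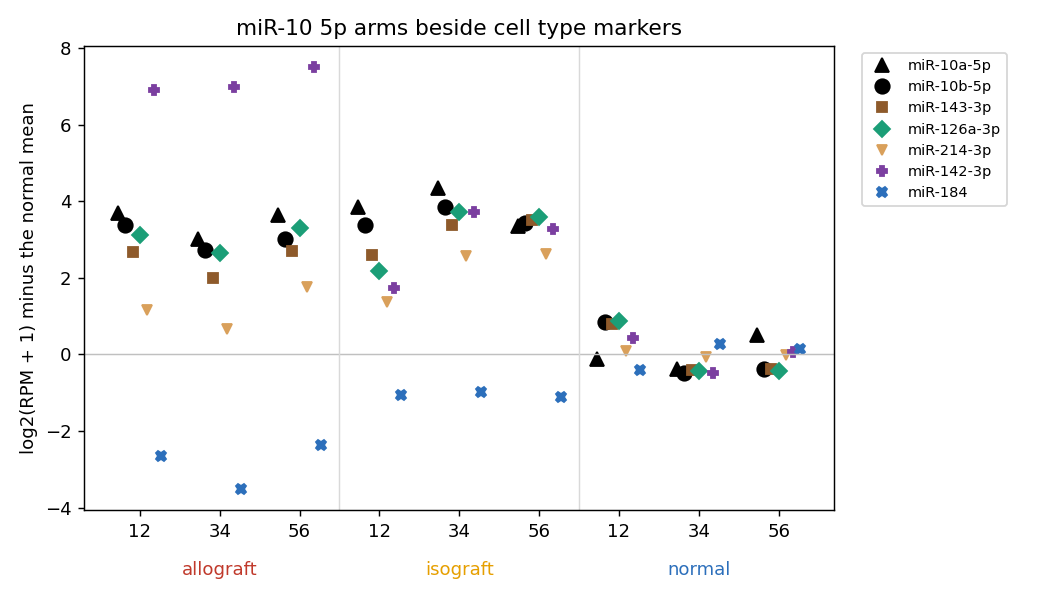
Level of each miRNA in each library as log2(RPM + 1) minus its mean over the normal libraries, with the miR-10 5p arms in black. In the grafts the 5p arms lie between 2.72 and 4.35, miR-143-3p between 1.99 and 3.50 and miR-126a-3p between 2.18 and 3.71. Leukocyte miR-142-3p reaches 6.91 to 7.50 in allografts, and epithelial miR-184 lies below 0 in all 6 grafts.

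Likeness of pattern was measured as the root mean square difference of log2(RPM + 1) over the 9 libraries, after centring each miRNA on its own mean, among 153 miRNAs with a group mean of at least 50 RPM. The 5p arms differed from each other by 0.504. The miRNAs nearest to miR-10b-5p in this measure were miR-143-3p (0.340), miR-126a-3p (0.407), miR-143-5p (0.408), miR-145-3p (0.542), miR-145-5p (0.578) and miR-542-3p (0.678). Those most like miR-10a-5p were miR-143-5p (0.606), miR-143-3p (0.690), miR-126a-3p (0.700), miR-21-5p (0.812), miR-145-3p (0.813) and miR-542-3p (0.814). For miR-10b-5p, 3 miRNAs were thus closer than its own paralogue miR-10a-5p, whereas for miR-10a-5p miR-10b-5p was closer than any of the 153. A miRNA low in normal corneas could enter the candidates only if it was high in a graft group. Among those named, miR-143-5p reached 50 RPM only in isografts 34 and 56, and miR-145-3p only in grafts. The measure describes these 9 libraries, which share 3 groups and 1 scaling.

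The other miRNAs of the Hox clusters were at or near 0. The table lists 7 of them, the arms of miR-196a, miR-196b and miR-196c, and miR-615. Both arms of miR-196c, miR-196a-3p and miR-196b-3p had no read in any library, which by the one-sided limit of 3 reads allows up to 0.273 RPM in each. miR-196a-5p had 1 read in allografts, 0 in isografts and 1 in normal corneas, and miR-615 had 2 in allografts, 0 in isografts and 1 in normal corneas. By gene order miR-196c lies in the same Hoxb cluster as miR-10a, between Hoxb13 and Hoxb9. No Hox cluster miRNA other than miR-10 passed the filter.

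miR-196b-5p, from between Hoxa9 and Hoxa10 and known in mice from blood cell progenitors, was the exception among these low miRNAs. Its mature sequence is unlike that of miR-10, with bases 2 to 8 in capitals here.
miR-196b-5p: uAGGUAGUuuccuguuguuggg
It had 8, 18 and 28 reads in allografts 12, 34 and 56, 2, 5 and 2 reads in the isografts and 1, 1 and 0 reads in the normal corneas. All allograft counts lay above all isograft and normal counts, where 12% of the 606 miRNAs with a read had allograft values wholly above the isograft ones. Pooled per read sequenced it was 6.21-fold higher in allografts than in isografts (95% counting interval 3.04 to 14.3). Without the filter edgeR gave it an adjusted p = 0.00031 between allografts and isografts, where 16.8% of 606 miRNAs were called higher, and 8e-06 between allografts and normal corneas. Between isografts and normal corneas edgeR gave an adjusted p = 0.219. With limma and DESeq2 without the filter, the adjusted p ran from 0.00194 to 0.00374 between allografts and isografts. With the same tools it ran from 0.000213 to 0.000283 between allografts and normal corneas, and from 0.317 to 0.573 between isografts and normal corneas. The summed leukocyte miRNAs given above ranked the groups in the same order, and their part in the miR-196b-5p result was not tested.

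**Figure D5:**
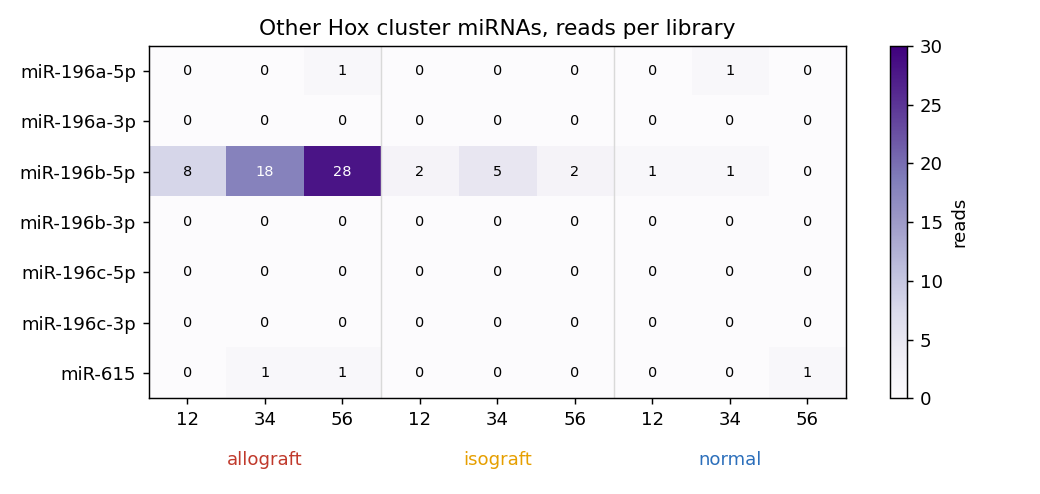
Reads per library of the 7 listed Hox cluster miRNAs other than miR-10, in rows, with allograft, isograft and normal libraries in columns. miR-196b-5p has 8 to 28 reads in allografts and at most 5 elsewhere, and no other row exceeds 1 read.

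Of 3 relatives of miR-10 that lie outside the Hox clusters, miR-99a-5p, miR-99b-5p and miR-100-5p, 1 rose in isografts, where 16.7% of the tested miRNAs rose, and 1 fell in allografts, where 24.2% fell, both against normal corneas. The sequences of miR-100-5p and miR-99b-5p are close to miR-10 but their shared seed, in capitals here, differs from that of miR-10a-5p.
miR-100-5p: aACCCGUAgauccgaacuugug
miR-99b-5p: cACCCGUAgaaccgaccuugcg
miR-100-5p averaged 1751 ± 458 RPM in allografts, 3717 ± 502 RPM in isografts and 2090 ± 132 RPM in normal corneas (SD, n = 3 each). Its log2 fold change was -0.29 in allografts (SE 0.33, limma adjusted p = 0.486) and 0.82 in isografts (SE 0.33, adjusted p = 0.0802) against normal corneas. Of 24 other settings 10 called miR-100-5p higher in isografts (limma, edgeR or DESeq2 adjusted p between 0.000147 and 0.37 over the 24). Scaling to listed miRNAs alone turned the allograft value of miR-100-5p to 0.43 and past the threshold (limma adjusted p = 0.0248). miR-99b-5p averaged 1037 ± 259 RPM in allografts, 1994 ± 202 RPM in isografts and 973 ± 129 RPM in normal corneas. It rose in isografts by 1.04 (SE 0.33, limma adjusted p = 0.0255) and stood at 0.07 in allografts (SE 0.33, adjusted p = 0.892), a value that scaling without miR-184 turned to -0.37 and that scaling to listed miRNAs moved to 0.79 and past the threshold (limma adjusted p = 0.000523). The isograft call of miR-99b-5p was lost with scaling without miR-184 (limma adjusted p = 0.184), without isograft 34 or 56 and without any 1 of the normal libraries (adjusted p up to 0.128). miR-99a-5p, the most abundant of these relatives at 11954 ± 1654 RPM in normal corneas, fell to 4617 ± 1222 RPM in allografts (log2 fold change -1.40, SE 0.33, limma adjusted p = 0.00104) and stood at -0.54 in isografts (SE 0.33, adjusted p = 0.3, with a lower call in 5 of 24 other settings). Allografts were lower than isografts for all 3 relatives, at -1.11, -0.97 and -0.85 for miR-100-5p, miR-99b-5p and miR-99a-5p (limma adjusted p = 0.0113, 0.0251 and 0.047). Between the grafts 21.0% of all tested miRNAs fell, and their median log2 fold change was -0.29. The call of miR-100-5p was lost without allograft 34 (limma adjusted p = 0.0584), that of miR-99b-5p without allograft 12 or 34 or isograft 34 or 56 (adjusted p up to 0.103) and in the fit of these groups alone, and that of miR-99a-5p in 11 of 24 other settings (adjusted p up to 0.19).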

How the data were processed

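The authors deposited RPM values, reads scaled to a library total that also holds reads outside the listed miRNAs. Per the labels' protocols, RNA was taken up in Trizol and libraries were made with the TruSeq small RNA kit. The submitters' processing notes name BWA, bcl2fastq and rn6 (rat genome build). The sources used here give no versions, trimming, annotation or handling of multi-mapping reads. All 9 columns matched a title, and 0 were left over.

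The deposited RPM values were whole multiples of a step, so reads could be recovered (100% of values whole within 0.1 read). log2(RPM + 1) was fitted over all 9 libraries with limma 3.58.1 (R 4.3.3), with a mean-variance trend, no covariate, Benjamini-Hochberg adjustment over 281 miRNAs and a threshold of 0.05. Fold changes on this scale understate low miRNAs. edgeR 4.0.16 and DESeq2 1.42.0 on recovered reads called 193 and 195 miRNAs in allografts against normal corneas, 114 and 119 in isografts against normal corneas, and 163 and 171 between the grafts. Exact permutation tests were used for ratios, and 3 libraries against 3 cannot give a p below 0.1. The code was tested on simulated data.

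The members and lists were chosen with earlier results of these data known. miRNAs were named as the family, the other Hox cluster miRNAs, 3 relatives, the 6 miRNAs nearest to each 5p arm, and markers. Equal numbers in the titles were not taken to pair libraries.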

Additional observations from a re-analysis of the deposited data

How the results depend on the processing

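Both 5p arms stayed past the threshold against normal corneas in all 24 other settings (9 that leave out a library, 15 others). In allografts miR-10a-5p lay between 3.05 and 4.14 and miR-10b-5p between 2.60 and 3.75, and in isografts they lay between 3.49 and 4.13 and between 3.27 and 3.98. Between the grafts neither passed in any of the 24, and scaling to listed miRNAs alone turned miR-10a-5p to 0.0135. The replicate block left every call of the 5p arms as it was (3.45 and 3.04 in allografts, 3.85 and 3.55 in isografts), with 66 miRNAs called in isografts against normal corneas and 112 between the grafts, and no count of calls moved by over 1.5 times. Deviations of equally numbered libraries correlated between -0.514 and 0.557, above 0.1 in 2 of 9 pairs, and the numbers were not taken to pair libraries. With 3 libraries per group these correlations cannot exclude pairing.

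In allografts against normal corneas there were 65 higher and 68 lower calls, and 63 in all with a filter at 50 RPM, 265 with edgeR and 253 with DESeq2 without a filter, and 96 to 162 with a library left out. In isografts against normal corneas 60 were called (47 higher, 13 lower), and 30 with the filter at 50 RPM, 115 with median of ratios scaling, 122 with scaling to listed miRNAs, 114 with edgeR, 119 with DESeq2, 138 and 134 with these tools without a filter, and 40 to 79 with a library left out. Between the grafts 97 were called (38 higher, 59 lower), and 44 with the filter at 50 RPM, 168 with median of ratios scaling, 163 with edgeR, 171 with DESeq2, 217 and 200 with these tools without a filter, 42 without allograft 34, 52 without allograft 12 and 146 without isograft 12. The split of higher to lower calls moved to 51 to 104 (without miR-184) and, of 186 calls, 44 lower ones (scaling to listed miRNAs) in allografts, to 66 to 49 (median of ratios) and 38 to 22 (without miR-184) in isografts, and to 86 to 55 (scaling to listed miRNAs) between the grafts. Scaling to listed miRNAs moved the median of all tested miRNAs to 0.54 in allografts, against -0.14 in the fit reported, to 0.33 in isografts, against 0.05, and to 0.10 between the grafts, against -0.29. Scaling without miR-184 moved it to -0.56, -0.22 and -0.44 in the same comparisons. The causes were not tested.

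The 3p arms are few reads, and the size of their difference follows the pseudocount. For miR-10a-3p the difference of log2(RPM + 1) from normal corneas was 0.56 in allografts (0.92 with a pseudocount of 0.5, 0.14 with 5, 3.68 with edgeR and 4.06 with DESeq2 without a filter) and 0.69 in isografts (1.0998, 0.18, 3.93 and 4.21 in the same order). For miR-10b-3p it was 1.56 in allografts (2.09, 0.56, 3.38 and 3.57) and 1.92 in isografts (0.77 with a pseudocount of 5, 3.802 with edgeR and 3.87 with DESeq2). The 3p arms have no value with a filter, which includes the replicate block, the fits of 2 groups and the trend and robust options. With a library left out, the log2 ratio of miR-10a-5p to miR-10b-5p, as the mean of both grafts minus normal corneas (0.35), was -0.13 (without normal 12) to 0.79 (without normal 56), and the same difference in the 3p share of miR-10a (0.03 percentage points) was -0.14 to 0.35. The sign of miR-99b-5p in allografts turned without miR-184 (-0.37), moved to 0.79 with scaling to listed miRNAs (limma adjusted p = 0.000523) and ran from -0.10 to 0.28 with a library left out, and miR-100-5p turned to 0.43 with scaling to listed miRNAs. Between the grafts miR-126a-3p turned to 0.10 with median of ratios scaling, 0.28 with scaling to listed miRNAs, 0.0797 with edgeR, 0.0643 with DESeq2 and 0.0829 with DESeq2 without a filter, and ran from -0.62 to 0.15 with a library left out, as miR-126a-5p did from -0.32 to 0.74. miR-199a-3p in allografts against normal corneas turned to 0.52 with scaling to listed miRNAs and ran from -0.58 to 0.0648 with a library left out. Low read counts limit what can be said of the 3p arms and of miR-196b-5p.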
